A study of Zea mays with 4 samples.

Results

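The table of maize leaf microRNAs held 41 entries whose names start with PC-, a prefix used here for predicted candidates, out of 319 distinct sequences. They were chosen by that prefix alone, with each sequence counted once, and no level entered the choice. The other sequences were 110 with maize names (zma-) and 168 with names from other plants. Each PC- name goes on with an arm (5p or 3p), a middle number and a last number, and none of these sequences also had a named row.

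The microRNA profile of *Zea mays* leaves at the 4-leaf stage was followed under feeding by the fall armyworm, *Spodoptera frugiperda*, whose larvae eat maize. CK1 and CK3 are unfed leaves, with no sampling time in the labels, T1 is leaves after 1 day of feeding, and T3 is leaves after 3 days. Each group has 1 column of values, called a library here, so differences between 2 libraries rest on no replicates. The labels name no cultivar or plant number. The protocol speaks of more small RNA libraries than the 4 samples used here, and nothing says whether a column pools several libraries or plants. In whole leaves, fewer cells of a type and less RNA per cell cannot be told apart.

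Plant microRNAs are cut by the enzyme DCL1 from RNA that folds into a hairpin, and most are 20 to 22 nt long, begin with U and are loaded into the Argonaute protein AGO1, which cuts or silences matching messenger RNAs. A second large class, the small interfering RNAs of 24 nt, is cut by DCL3 from double-stranded RNA. Many of these begin with A, are bound by AGO4 and its relatives, and direct DNA methylation to transposons and other repeats, which fill most of the maize genome.

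The predicted entries were mainly long and began mainly with A. Of the 41, 28 (68.3%) were 24 nt, 9 were 21 nt, 3 were 22 nt and 1 was 20 nt. Among the maize-named sequences, 1 of 110 was 24 nt and 101 (91.8%) were 20 to 22 nt. Among those named after other plants, 9 of 168 (5.36%) were 24 nt. The first base was A in 33 predicted entries (80.5%), T in 7 and G in 1, and C in none. The letters are those of the table, which writes T for U. Maize-named sequences began with T in 56 cases (50.9%) and with A in 13 (11.8%). Both features together, 24 nt and A first, were met by 26 predicted entries (63.4%), 1 maize-named sequence and 3 named after other plants. The form typical of microRNAs, 20 to 22 nt with T first, was met by 5 predicted entries (12.2%), against 52 of the maize-named ones (47.3%). Median GC content was similar, 54.2% in the predicted and 52.4% in the maize-named sequences. These are descriptions of sequences in a single table, and no test was made of them.

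**Figure D1:**
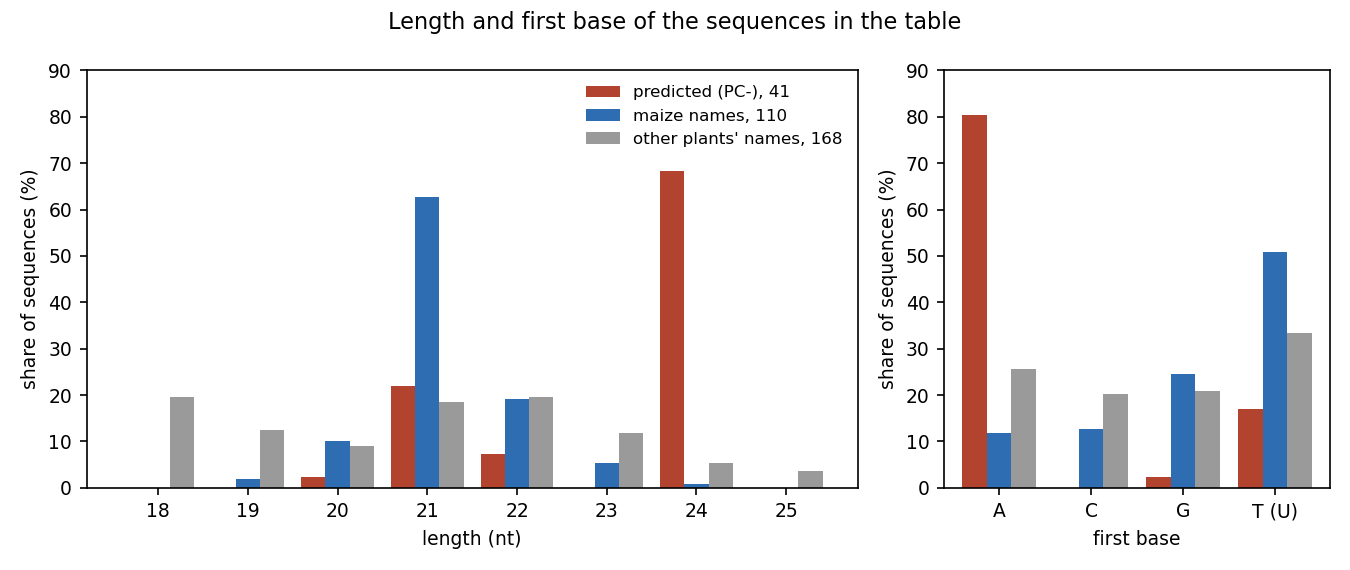
Share of sequences (%) by length in nt (left) and by first base (right) for the 41 predicted, 110 maize-named and 168 other-plant-named sequences. The predicted bars peak at 24 nt (68.3%) and at A (80.5%), where the maize-named bars stand at 0.909% and 11.8%.

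By the arm in the name, 16 entries were 5p and 25 were 3p. The 3p entries were 24 nt in 19 cases and began with A in 23. Of the 5p entries 9 were 24 nt and 10 began with A, and 5 of the 7 entries with T first were 5p.

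The sequences were not independent of one another. When any run of at least 12 identical bases on either strand was taken as a link, 24 of the 41 fell into 6 groups and 17 stood alone. Such links were not particular to the predicted entries. On the same strand they joined 18 of the 41 (43.9%), 53 of 110 maize-named sequences (48.2%) and 113 of 168 named after other plants (67.3%). The run length was chosen after the sequences had been seen. No predicted entry shared such a run with a named sequence. The largest group held 11 entries, all 24 nt and all with A first, which overlapped on a stretch of 47 bases. Some were shifted along it, and others were variants that cover nearly the same positions with different bases. The following 6 lines show 3 pairs of neighbours along that stretch, with the run that each pair shares in capitals. These pairs were picked from those that match at every overlapping base. In the last pair the run is shared with the opposite strand.
PC-3p-39361_19: acaaaACCCCCTGACACAGCACCG
PC-3p-80586_6: ACCCCCTGACACAGCACCGttgga
PC-3p-80586_6: accccctgacacAGCACCGTTGGA
PC-3p-12223_82: AGCACCGTTGGAtgtggagggtgt
PC-3p-31069_27: acCGTTGGATGTGGAGGGTGTGGT
PC-5p-40256_19: agACCACACCCTCCACATCCAACG

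PC-3p-12223_82 also pairs with PC-5p-40256_19, over 19 bases. Placed one by one without gaps, 10 entries of this group lay on one strand and PC-5p-40256_19 on the other. Of the 10 entries placed after the first, 5 matched the nearest entry already placed at every overlapping base, and the others differed from it at 1 or 2 positions. Entries not placed against each other, such as PC-3p-48631_14 and PC-3p-90797_6, can differ at more positions. Beside PC-3p-39361_19, PC-3p-47599_14, PC-3p-35039_23, PC-3p-42282_17, PC-3p-47272_15, PC-3p-48631_14 and PC-3p-90797_6 began at positions 1 to 4 of the stretch. PC-3p-39361_19, PC-3p-47599_14, PC-3p-35039_23 and PC-3p-42282_17 were all placed at positions 2 to 25 and differ from each other in sequence. Where the entries lie in the maize genome, and in how many copies, was not tested.

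**Figure D2:**
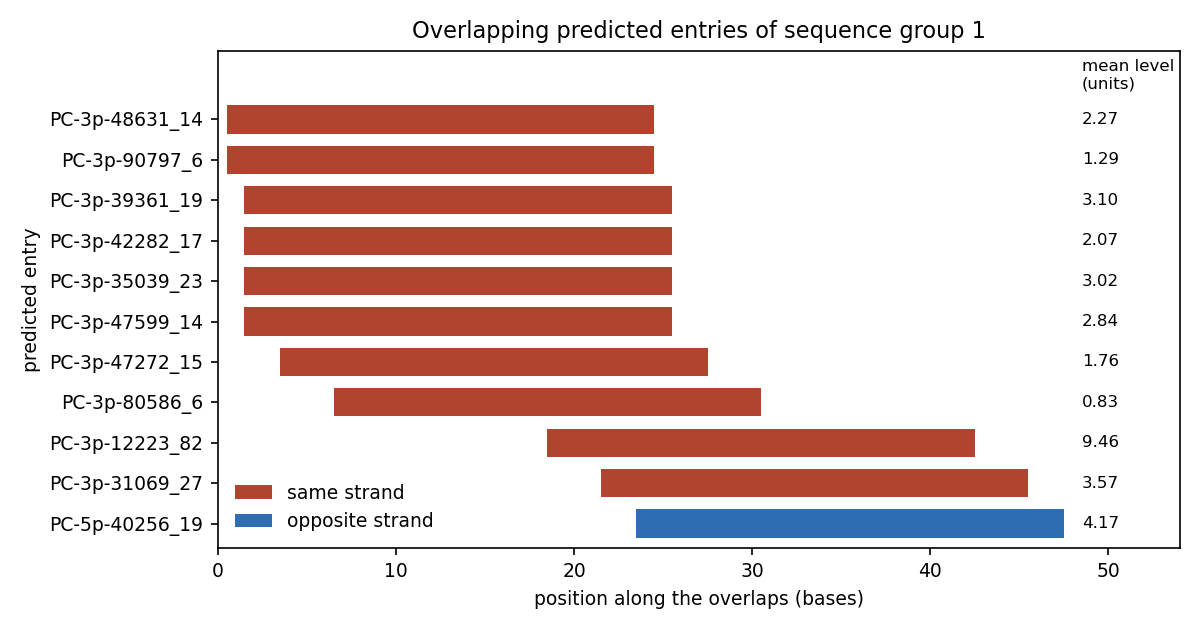
Position in bases of the 11 overlapping entries along their own ungapped overlaps, with bars for the 24-nt entries, coloured by strand, and the mean level over 4 libraries in units at the right. Entries begin at 1 to 7 or at 19 to 24, and the highest mean level, 9.46 units, belongs to PC-3p-12223_82.

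A second set was tied by the motif CCGACGG, which was picked after the sequences had been seen. Read on both strands, it occurred in 8 of the 41 predicted entries (19.5%), in no named sequence, and so in 2.51% of all sequences. The 8 entries are shown with the motif, or its reverse complement, in capitals.
PC-3p-17806_53: atctCCGACGGcctcgtacagagc
PC-3p-41685_18: aaccttatctCCGACGGcctcgta
PC-5p-39709_19: atctCCGACGGctctgtacgaggc
PC-5p-96247_5: ttatctCCGACGGctagttac
PC-5p-62426_9: atgtCCGACGGctgtcagggtagc
PC-5p-43682_17: aagcttatgtCCGACGGtccgcct
PC-3p-96052_5: agtccttggtggCCGTCGGacata
PC-5p-60742_10: taactcCCGTCGGccacggcc

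The first 4 of these share runs of 12 to 18 bases on the same strand. PC-3p-96052_5 matches the reverse complement of PC-5p-62426_9 and of PC-5p-43682_17 over 12 bases each. PC-5p-60742_10 shares no run of 12 bases with any of them. PC-5p-39709_19 and PC-3p-17806_53 also match over 14 bases on opposite strands, with the paired run at both 3′ ends.

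Runs of at least 12 bases on opposite strands joined 10 of the 41 predicted entries (24.4%), in 6 pairs with runs of 12 to 22 bases. Among maize-named sequences 10 of 110 (9.09%) were joined in this way, with the longest run at 15 bases, and among those named after other plants 12 of 168 (7.14%), with the longest run at 20 bases. The pair that forms a group of its own is shown with its 21 paired bases in capitals.
PC-5p-115990_5: aGAGAATTGAGGGGGCTATAATcc
PC-3p-60176_10: ATTATAGCCCCCTCAATTCTC

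The 5p entry of this pair overhangs by 2 bases at its 3′ end, and the 3p entry ends 1 base short of the 5p entry's first base. Both were listed above 0 in T1 only, at 3.03 units for PC-5p-115990_5 and 6.06 units for PC-3p-60176_10. The 22-base match of PC-5p-40256_19 and PC-3p-31069_27 leaves the 5′ end of each strand unpaired over 2 bases.

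Bases 2 to 8 were shared within 4 small sets of predicted entries, 9 entries in all. No predicted entry shared them with any named sequence, whereas 55 of the 110 maize-named sequences shared them with another sequence of the table. The sets are shown with bases 2 to 8 in capitals.
PC-3p-15313_64: aTTTTAGCccctccaatctcg
PC-3p-46435_15: aTTTTAGCccctccaatctcgt
PC-3p-59424_10: aTTTTAGCccatccaaccccc
PC-3p-17806_53: aTCTCCGAcggcctcgtacagagc
PC-5p-39709_19: aTCTCCGAcggctctgtacgaggc
PC-3p-39361_19: aCAAAACCccctgacacagcaccg
PC-3p-90797_6: aCAAAACCcccctgacacaacacc
PC-3p-47599_14: aAAAACCCccctgacacagcaccg
PC-3p-35039_23: aAAAACCCccctgacgcagcaccg

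PC-3p-46435_15 is PC-3p-15313_64 with 1 more base at the 3′ end. The pair differed in level, with PC-3p-15313_64 listed in all 4 libraries and PC-3p-46435_15 in the fed ones only, at 3.03 units in T1 and 3.52 in T3.

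Levels are the authors' normalized values, called units here. Each library had a smallest regular increment, its step, and 90.4% to 93.8% of its listed values came to a whole number of steps within 0.02. Every value of a predicted entry did. The step was worth 0.736 units (CK1), 0.826 (CK3), 0.303 (T1) and 0.352 (T3). The summed steps of the libraries spanned 2.40-fold, with the higher sums in the fed libraries. No predicted entry was listed below 5 steps, a level of 3.68 units (CK1), 4.13 (CK3), 1.51 (T1) and 1.76 (T3). Some maize-named sequences were listed lower, down to 2.5 steps in CK3 and 1.67 in T1.

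A step need not be a read. Steps summed over the 4 libraries came to exactly 2 times the last number in the name for 23 entries and to exactly that number for 6, and the other 12 had ratios between 1.10 and 4. What the last number counts is not given in the sources used here. Ordered by the middle number, the last number never rose from one entry to the next, from 82 down to 5. For 28 of the 41 entries every value was an even number of steps, and none of these 28 was listed below 10 steps (8.26 units in CK3). Whether levels of different predicted entries are on one scale is therefore not known and was not tested, whereas ratios between libraries concern the same entry. No counting interval is given, since steps are not known to be reads.

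**Figure D3:**
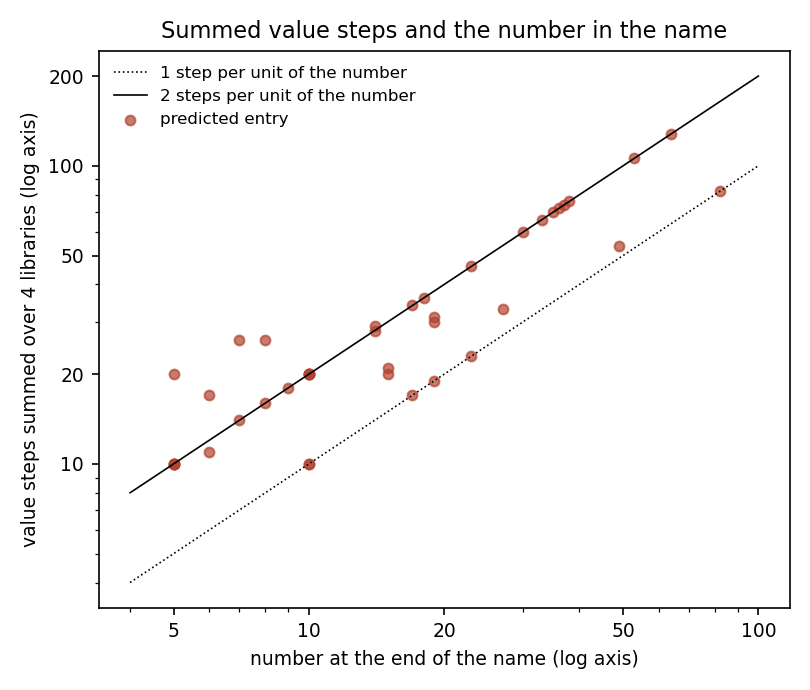
Value steps summed over the 4 libraries (log axis) against the last number in the name (log axis) for the 41 predicted entries, with lines for 1 and for 2 steps per unit of that number. Of the points, 23 lie on the upper line and 6 on the lower one.

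The predicted entries were scarce in every library. Together they made up 200.2 units (CK1), 63.6 (CK3), 172 (T1) and 186 (T3), or 0.313%, 0.0848%, 0.271% and 0.292% of the listed units. The maize-named sequences made up 26.4% to 36.2%. Among listed entries the median level in CK1 was 8.83 units for the predicted and 39.7 for the maize-named, and in T3 it was 4.93 and 43.0. No predicted entry reached 100 units in any library, while 36 of the maize-named sequences did. The highest value of a predicted entry was 20.4 units. For scale, zma-miR168b-3p_R+1 had 3889 units (CK1), 3005 (CK3), 3444 (T1) and 3908 (T3). The other 4 of the 5 most abundant maize names were zma-miR408a, which targets copper proteins, zma-miR528a-5p, zma-MIR397b-p5 and zma-miR168a-5p, the regulator of AGO1, with means of 1189 to 3232 units.

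At least 10 units in some library were reached by 12 predicted entries (29.3%), against 87 maize-named sequences (79.1%) and 105 named after other plants (62.5%). Of these 12, 7 were 24 nt and 9 began with A. The highest library was CK1 for 8 of them, T3 for 2, and CK3 and T1 for 1 each. CK3 listed 7 of the 12 at 0. All of the 12 but PC-3p-12223_82 and PC-5p-40256_19 had summed steps of exactly 2 times the last number in the name. Whether reaching 10 units depends on the scale of an entry's values was not tested. Those of the 12 not yet shown have the following sequences, with bases 2 to 8 in capitals.
PC-5p-23569_38: tTGGGAGCcacaaaactgaag
PC-3p-24146_37: aTTTTATCctcctacacttccacc
PC-5p-24810_36: aTGCGGAGaggctctcgagaga
PC-3p-26121_33: aTCGTATTaggaacgtgggtaccc
PC-3p-25500_35: aGCCCCTTcaaccccttcggt
PC-5p-28290_30: tTAAATCTggacccttcatct
PC-3p-35287_23: tACAATCCctttctggatcggcct
PC-5p-59745_10: aTAACTAAttgtgggtcgtgtcgt

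PC-3p-15313_64, a 21-nt sequence, had the highest mean of the predicted entries in units, 14.0. By the last number in the name, PC-3p-12223_82 would come first with 82, ahead of PC-3p-15313_64 with 64. PC-3p-15313_64 stood at 8.83 units (CK1), 16.5 (CK3), 19.4 (T1) and 11.3 (T3), so the unfed values lay on both sides of that of T3. The 24-nt PC-3p-17806_53, second by mean units, had 11.8 units in CK1, listed at 0 in CK3, 9.69 in T1 and 20.4 in T3. PC-3p-12223_82 of the overlapping group was at 14.7, 4.13, 6.66 and 12.3 units in the same order, and here the unfed libraries enclosed both fed ones.

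PC-5p-23569_38 (7.36, 11.6, 6.66 and 10.6 units in CK1, CK3, T1 and T3) and PC-3p-24146_37 (10.3, 8.26, 10.3 and 5.63) completed the 5 highest means. Neither separated the fed from the unfed libraries. PC-3p-26121_33, at 11.8, 8.26, 6.06 and 7.04 units, was below both unfed values in both fed libraries. It shares 15 bases with PC-3p-78744_7, listed only in T1 and T3.

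The other 6 entries that reached 10 units were listed at 0 in CK3. PC-5p-24810_36 was at 19.1 units in CK1, 6.66 in T1 and 8.45 in T3, PC-3p-25500_35 at 13.2, 6.66 and 10.6, and PC-5p-28290_30 at 8.83, 4.24 and 12. PC-3p-35287_23 was at 11.8, 6.06 and 3.52 units, and PC-5p-40256_19, the opposite-strand member of the overlapping group, was at 11 in CK1 and 5.63 in T3 and listed at 0 in T1. PC-5p-59745_10, at 14.7 units in CK1, was listed at 0 everywhere else and was the only predicted entry listed in an unfed but in no fed library.

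**Figure D4:**
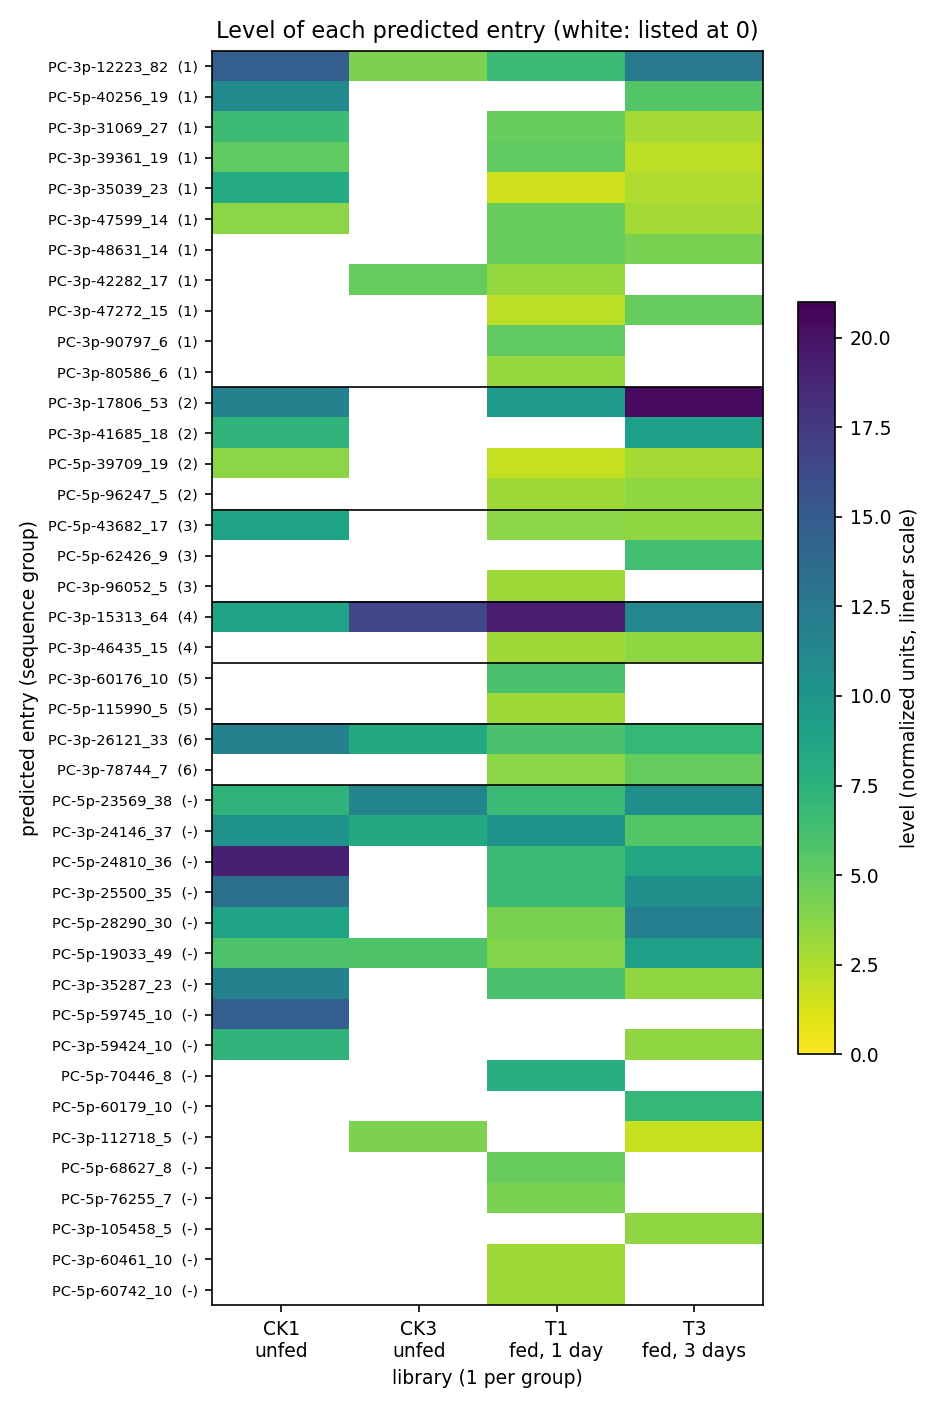
Level of each of the 41 predicted entries (colour, normalized units, linear scale) in the 4 libraries, by sequence group (number in brackets), with white for entries listed at 0. The CK3 column is mostly white, with 8 entries above 0, while CK1 has 21, T1 33 and T3 29.

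The libraries differed in which predicted entries they listed. CK1 listed 21 of 41 (51.2%), CK3 8 (19.5%), T1 33 (80.5%) and T3 29 (70.7%). Maize-named sequences were listed in 80.9%, 71.8%, 95.5% and 90% of cases in the same order, and in CK3 those named after other plants were listed in 67.9%. At a common level of 4.13 units, that of 5 steps in CK3, the predicted entries numbered 19 (CK1), 8 (CK3), 19 (T1) and 17 (T3). At this level the fed libraries did not exceed CK1, and CK3 was still lowest. Both unfed libraries had about the same summed steps, 87014 in CK1 and 90834 in CK3, but steps are not known to be reads. Why the listings differed between the libraries was not tested.

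Only 6 predicted entries (14.6%) were above 0 in all 4 libraries, namely PC-3p-15313_64, PC-3p-12223_82, PC-5p-23569_38, PC-3p-24146_37, PC-3p-26121_33 and PC-5p-19033_49, where 49.2% of all sequences of the table were. PC-5p-19033_49 had 5.89 units (CK1), 5.78 (CK3), 3.94 (T1) and 9.15 (T3). A further 11 entries were above 0 in CK1, T1 and T3 but not in CK3, and no predicted entry was missing from CK1 alone. Another 5 had mixed combinations of fed and unfed libraries, and the other 19 were listed on one side only. With CK3 left out, 17 were above 0 in all the libraries used, where 59.2% of all sequences were.

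In a fed but in no unfed library there were 18 predicted entries (43.9%), where the share over all sequences was 24.5%. In the opposite case there was 1 (2.44%), where the share over all sequences was 1.88%. The 18 comprised 10 listed in T1 only, 3 in T3 only and 5 in both. The 5 were PC-3p-48631_14 at 4.84 units in T1 and 4.22 in T3, PC-3p-78744_7 at 3.63 and 4.93, PC-3p-47272_15 at 2.12 and 4.93, and PC-3p-46435_15 and PC-5p-96247_5 at 3.03 and 3.52 each. All of these values are within 5 units of 0, near the lowest levels at which CK1 and CK3 listed any predicted entry.

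None of the 18 reached 10 units. Their highest value was 7.87 units, for PC-5p-70446_8 in T1, and 10 of the 18 reached 4.13 units in some library. Of the 18, 15 belonged to the entries with even steps only, for which nothing was listed under 10 steps. None of the 18 reached that level of CK3 (8.26 units), and PC-5p-70446_8 alone reached that of CK1 (7.36 units). The other 3 of the 18, PC-3p-90797_6, PC-3p-47272_15 and PC-3p-80586_6, had highest values of 5.15, 4.93 and 3.33 units, against 5 steps worth 3.68 units in CK1 and 4.13 in CK3. The set with even steps was formed from these same values, so the level of 10 steps may not hold for each of its entries. For entries under 5 steps of CK1 and of CK3, absence there cannot be told apart from a level below the listed range. For entries above that, whether absence reflects such a low level was not tested.

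**Figure D5:**
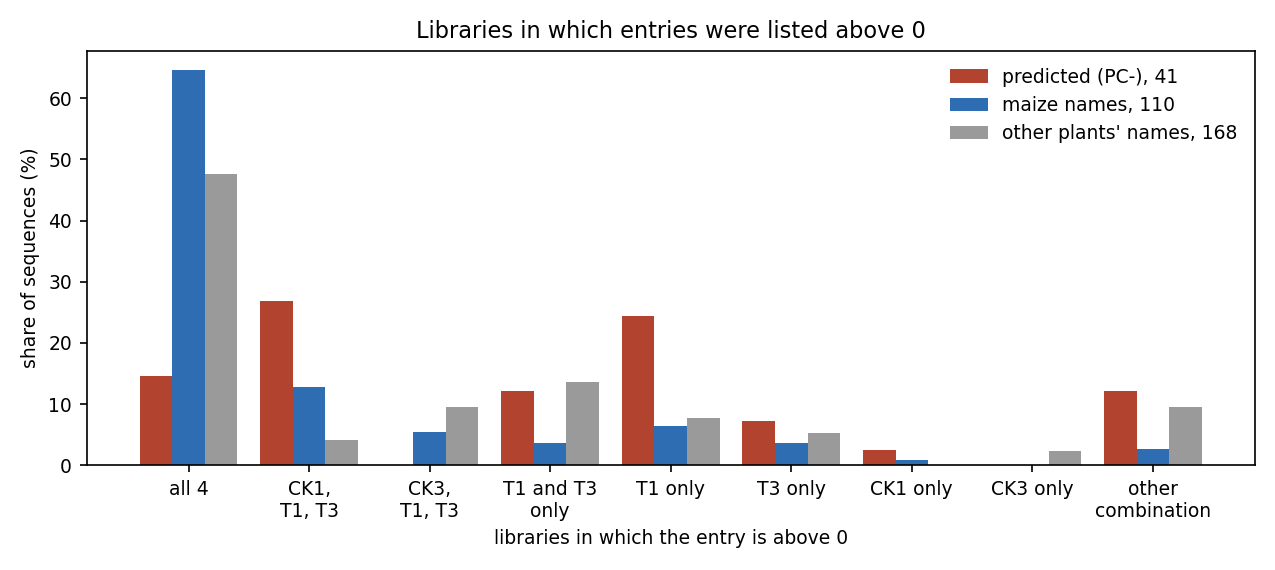
Share of sequences (%) by the set of libraries in which they were above 0, for predicted, maize-named and other-plant-named sequences. Predicted entries stand at 14.6% for all 4 libraries and 24.4% for T1 only, against 64.5% and 6.36% of the maize-named ones.

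For T1 against CK1, entries were called by size alone, at a difference of 2-fold or more on the log2(value + 1) scale with at least 10 units in the higher library. An entry with 10 units in only 1 of the 2 libraries could be called higher in that library alone. Predicted entries reached 10 units in 9 cases (CK1), 2 (CK3), 2 (T1) and 6 (T3). The minimum therefore restricted the direction that a call could take, here and in the comparisons below. With no minimum (counts given further below), the balance of higher and lower calls changed for T1 against CK1 and for T3 against T1. It kept its direction for T3 against CK3 and for CK3 against CK1. Of 10 predicted entries compared, 1 was higher and 4 were lower, while 15.8% of all 165 compared sequences were higher and 10.3% lower. The median log2 difference was -0.88 for the predicted and -0.12 for all. PC-3p-15313_64 was the higher one, with 19.4 against 8.83 units, a log2 difference of 1.05. PC-5p-24810_36 was 2.87-fold lower (log2 difference -1.39) and PC-3p-12223_82 2.21-fold lower (-1.04), and PC-5p-40256_19 and PC-5p-59745_10 were listed at 0 in T1. With CK3 as the control, 3 predicted entries could be compared and none passed in either direction, where 16.3% of 178 sequences were higher and 25.8% lower.

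For T3 against CK3, 6 predicted entries were compared, of which 4 were higher and none lower, where 24.9% of 185 sequences were higher and 23.2% lower. PC-3p-12223_82 was 2.98-fold higher, with 12.3 against 4.13 units and a log2 difference of 1.38. In CK3 the table has 0 for PC-3p-17806_53, PC-5p-28290_30 and PC-3p-25500_35, whose T3 levels were 20.4, 12 and 10.6 units. The other 2, PC-3p-15313_64 and PC-5p-23569_38, had log2 differences of -0.51 and -0.12. Against CK1 none of the 4 calls held. Of 12 predicted entries compared, none was higher then and 3 were lower, where 20.2% of 173 sequences were higher and 7.51% lower. The 3 were PC-5p-24810_36, PC-3p-35287_23 and PC-5p-59745_10, and of the 4 entries called higher against CK3, PC-3p-12223_82 (-0.24) and PC-3p-25500_35 (-0.30) turned in direction against CK1 on the log2 scale. PC-3p-17806_53 (0.75) and PC-5p-28290_30 (0.40) kept it.

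The unfed libraries differed from each other as well. For CK3 against CK1, 7 of 11 predicted entries were lower and none was higher, where 22.5% of 187 sequences were lower and 28.9% higher. Of the 7, 6 were listed at 0 in CK3, and the seventh, PC-3p-12223_82, was 3.56-fold lower there. The maize-named sequences were lower in 23 of 82 cases and higher in 9, and those named after other plants lower in 12 of 94 and higher in 45. For T3 against T1, 2 of 7 predicted entries were higher and none lower, where 13.9% of 165 sequences were higher and 3.64% lower. These were PC-5p-28290_30, at 2.82-fold, and PC-3p-17806_53, at 2.11-fold, which was just past the limit on the log2 scale and under it at equal totals (0.999) and by median of ratios (0.94). The comparisons share libraries and are not independent of each other.

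The 2 largest sequence groups were lowest in CK3. The 11 overlapping entries summed to 49.3 units (CK1), 9.08 (CK3), 41.8 (T1) and 37.3 (T3), with 6, 2, 10 and 8 of them listed. The 4 linked CCGACGG entries (PC-3p-17806_53, PC-3p-41685_18, PC-5p-39709_19 and PC-5p-96247_5) summed to 22.8 units in CK1, 14.5 in T1 and 35.9 in T3, and all were listed at 0 in CK3. By length, the 28 entries of 24 nt summed to 130 units (CK1), 29.7 (CK3), 105 (T1) and 109 (T3), and the 13 shorter ones to 70.6, 33.9, 66.9 and 76.0. Both length classes were thus lowest in CK3. These sums, like those over all predicted entries, take the entries to be on one scale, which is not known. Maize-named sequences also summed lowest in CK3, at 19765 units against 22404 (CK1), 22018 (T1) and 23010 (T3). Those named after other plants summed highest there, at 55180 units against 41429 (CK1), 41102 (T1) and 40414 (T3).

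Taking the fed libraries (T1 and T3) against the unfed ones (CK1 and CK3), limma on log2(value + 1) called none of the 154 sequences that had 10 or more units in 2 or more libraries (0% at an adjusted p of 0.05), and 6 of them had an unadjusted p under 0.05. Only 6 predicted entries passed that minimum, and none of these had an unadjusted p under 0.05. PC-3p-17806_53 had the smallest p, with a log2 difference, fed minus unfed, of 2.08 ± 1.41 (SE) and an adjusted p of 0.833 by limma. PC-3p-25500_35 had 1.32 ± 1.46 (limma adjusted p = 0.900) and PC-3p-15313_64 0.27 ± 0.66 (limma adjusted p = 0.963). PC-3p-12223_82, PC-5p-23569_38 and PC-3p-24146_37 had differences of 0.17 ± 0.86, -0.12 ± 0.69 and -0.24 ± 0.70, all smaller than their errors. With no minimum, limma again called none of 319 sequences. An unadjusted p under 0.05 was then found for 35 sequences, among them the 5 predicted entries listed in both fed libraries only, and the smallest adjusted p of a predicted entry was 0.272 (limma). Those 5 entered through their low fed values alone, and their unfed values are equal by the definition of their class. Their small p-values restate that listing and add no support to it. The spread in this test also holds the difference between feeding times, and since no label says that separate plants were used, the p-values measure only the spread between these 4 samples.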

How the data were processed

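Libraries were made with the TruSeq Small RNA kit and run on an Illumina HiSeq instrument, per the labels' protocols. The values are a signal per sequence, normalized by the authors per the file headers. The sources used here do not give the scaling, the aligner, the caller of predicted microRNAs or the genome build. No genome was used.

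Rows with equal sequence (500 rows, 319 sequences) were merged to 1 entry, named by a maize name if it had one. The step was the largest value of which at least 85% of a library's values were whole multiples. Since not all values were whole, no count model was applied. Differences are on the log2(value + 1) scale, which understates the change of low entries. No fold is given against a library at 0. limma 3.58.1 (R 4.3.3) used a trended prior and Benjamini-Hochberg adjustment, and was tested on simulated data. Predicted entries were named if they reached 10 units in any library, were among the 5 highest means, were listed only in both fed libraries, had one of the 3 smallest p, or shared bases 2 to 8. The 5 most abundant maize names were added. Further entries are named where a sequence or a count of 5 or fewer called for it, after their values were seen. The members and lists were chosen with earlier results of these data known. Alternatives were other pseudocounts, minimum levels, scalings and controls, each library left out, and merged entries.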

Additional observations from a re-analysis of the deposited data

Results flagged for a closer look

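PC-3p-12223_82 moved in opposite directions at the feeding times, with a log2 difference of -1.04 between T1 and CK1 and of 1.38 between T3 and CK3. Its fed values were 6.66 and 12.3 units and its unfed values 14.7 (CK1) and 4.13 (CK3), so each difference turned on which unfed library was used. With 1 library per group this contrast between the feeding times was not tested.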

How the results depend on the processing

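Counts of predicted entries were small and moved with the minimum level and the control. With no minimum, T1 against CK1 gave 17 higher and 8 lower of 37 (36% and 11% over all sequences compared), T3 against CK3 23 and 1 of 30 (40.4% and 19.3%), CK3 against CK1 2 and 16 of 23 (31.1% and 26.6%), and T3 against T1 10 and 11 of 40 (19.2% and 13.4%). At 20 units, 1 predicted entry could be compared for T3 against CK3 and 1 for T3 against T1. It was higher in both, where 23.5% and 13.1% of all were, and the other comparisons held 0 predicted entries. With CK3 as the control T1 gave 0 and 0, and with CK1 as the control T3 gave 0 and 3, with log2 differences of -0.24 for PC-3p-12223_82, -0.30 for PC-3p-25500_35, 0.75 for PC-3p-17806_53 and 0.40 for PC-5p-28290_30. A pseudocount of 5 left 0 higher for T1 against CK1 and 0 for T3 against T1, and equal totals and median of ratios each left 1 for the latter. Merging entries (added after seeing the data) left these counts as they were.

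Equal totals moved the median log2 difference of all sequences for T3 against CK3 from 0.01 to 0.31. At 4.13 units (added after seeing the data), 5 predicted entries were listed in all 4 libraries, 4 in CK1, T1 and T3, 11 in fed ones only and 6 in unfed ones only, where 43.3%, 5.33%, 15% and 10.3% of all sequences were. At 8.26 units these were 1, 1, 2 and 5, where 37.6%, 3.76%, 6.27% and 13.2% were, and without CK3 17 were in all.

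Leaving out 1 library leaves an arm with 1 sample, which is assumed to vary like the other arm. limma then called 0 to 3 sequences (3 without T1) and 0 to 0 predicted entries. The log2 difference, fed minus unfed, changed sign for 5 of the 6 predicted entries tested. It ran from -0.64 to 0.98 for PC-3p-12223_82, from -0.15 to 0.69 for PC-3p-15313_64, from -0.62 to 0.14 for PC-3p-24146_37, from -0.60 to 3.23 for PC-3p-25500_35 and from -0.42 to 0.17 for PC-5p-23569_38. PC-3p-17806_53, with the smallest p, kept its sign but ran from 0.24 (without CK3) to 3.92 (without CK1, limma adjusted p = 0.0669). The cause was not tested. With the number in the title as a replicate block, limma called 0. The samples share only this number, and the deviations of CK1 and T1 correlated at 0.306 over 154 sequences. The low levels limit the calls, since no predicted entry was listed under 5 steps.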

Other observations

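The table held 10 named sequences of 24 nt beside the 28 predicted ones. gma-miR408a-3p_L-1R+4, a form of the copper protein regulator miR408, was at 74.1 (CK1), 28.9 (CK3), 93.1 (T1) and 91.9 units (T3), above every predicted entry. zma-MIR171b-p5, the single 24-nt sequence with a maize name, was at 16.2, 0, 3.63 and 7.75 units. gma-miR164a_R+3, a form of the NAC regulator miR164, stood at 7.27 units in T1 and 10.6 in T3, with 0 for CK1 and for CK3.

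Each predicted entry was also compared without gaps with every named sequence, over at least 16 bases. The best match had 11 to 14 identical bases, with a median of 12, so none matched a named sequence at every overlapping base.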
